A study of Homo sapiens with 12 samples.

Results

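The comparison described here is that of the labelled E2A knockout with the wild type at day 15, the last day sampled in a differentiation of the human embryonic stem cell line H7 towards cardiomyocytes. Its members are the 4 libraries labelled day 15 (2 labelled E2A-/- and 2 wild type), of 12 in the series, and the day and genotype of the labels choose them. Groups of 2 libraries each, labelled knockout and wild type, were also sequenced at day 3 and at day 7, and day 7 serves below to show where day 15 differs. All groups share the H7 line and the differentiation, and the labels call the cells of days 7 and 15 cardiomyocytes. The labels do not give the site of the edit or the number of clones behind the knockout. Values are taken as FPKM (fragments scaled to the length of the transcript and to the fragments of the library), a level per length of transcript, for genes listed by symbol.

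E2A is an older name of TCF3. The gene encodes the basic helix-loop-helix proteins E12 and E47, which bind the E-box motif of DNA as dimers, often with a tissue-restricted partner, and ID proteins block them by pairing with them without binding DNA. Cardiomyocytes made from stem cells first switch on the genes of the contractile apparatus and then mature, with a change of myosin heavy chain isoforms, a denser sarcomere and a turn from glycolysis towards oxidation in the mitochondria.

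A change is the log2 of FPKM + 1, labelled knockout minus wild type, a scale that understates the change of genes with low values. Its standard error (SE) and p-value come from limma, a linear model fitted to all 12 libraries, and p-values were adjusted over the 16295 genes tested, with 0.05 as the threshold. The summed FPKM was 608845 and 577716 in the labelled knockout libraries of day 15, and 683169 and 700622 in the wild-type libraries. Transcripts encoded by the mitochondrial genome held 13.9% and 14.3% of that sum in the labelled knockout libraries, against 26.1% and 26.2% in the wild-type libraries. As no label says whether the replicates were separate cultures, the p-values cover only the spread between these libraries, which may be technical. In bulk RNA, fewer cells of a type and less RNA per cell cannot be told apart.

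TCF3 (GRCh38 chromosome 19, 1609290 to 1652605, minus strand) is the targeted gene. It stood at 169.7 and 108 FPKM in the labelled knockout, against 74.4 and 98.2 FPKM in the wild type (log2 change 0.66, SE 0.19, adjusted p = 0.0234). The messenger RNA of the targeted gene was thus not lower in either library labelled knockout than in the wild type, and both of them lay above both wild-type libraries. The difference no longer passed when labelled knockout replicate 1 (log2 change 0.34) or wild-type replicate 1 (0.46) was left out, or when the day 15 libraries were fitted alone. As the level of the target does not show the genotype, every direction below rests on the labels, and the libraries are called labelled knockout throughout. Protein was not measured. At day 7 the change of TCF3 was 0.36 and did not pass (adjusted p = 0.159).

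Of the other E proteins, TCF12 was higher and TCF4 did not pass. TCF12, also called HEB, stood at 56.2 and 35.3 FPKM in the labelled knockout, against 17.5 and 20.9 FPKM in the wild type (log2 change 1.18, SE 0.26, adjusted p = 0.00615). TCF4 stood at 94.3 and 65.1 FPKM in the labelled knockout and 52.8 and 53.8 FPKM in the wild type (log2 change 0.55, SE 0.24, adjusted p = 0.0970). The labelled knockout libraries lay above the wild-type libraries for both genes, but for TCF4 replicate 1 stood well above replicate 2, and without replicate 2 its change passed (0.81). Among the ID proteins, ID2 was lower, with 227 and 274 FPKM in the labelled knockout, against 404 and 463 FPKM in the wild type (log2 change -0.79, SE 0.13, adjusted p = 0.000933). ID4 was higher, with 68.2 and 86.5 FPKM in the labelled knockout, against 49.2 and 44.0 FPKM in the wild type (log2 change 0.71, SE 0.14, adjusted p = 0.00280). ID1, at 441 and 389 FPKM in the labelled knockout and 346 and 398 FPKM in the wild type, and ID3, at 112 and 109.9 FPKM in the labelled knockout and 104 and 119.7 FPKM in the wild type, did not pass (adjusted p = 0.308 and 0.981).

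In all, 5723 genes, 35.1% of those tested, passed the test, 3080 higher (18.9%) and 2643 lower (16.2%). The median log2 change of all genes tested was 0.03. A change of at least 1 on the log2 scale was seen for 1043 of the higher and 848 of the lower genes. For all 5723 genes the labelled knockout libraries and the wild-type libraries did not overlap, so a lack of overlap, where named below, adds nothing to a call. With 2 libraries against 2 it is a weak criterion, and how often it occurs over all genes tested is not given. With so many genes past the test, the number of members of a gene list that passed is to be read against these shares. Without wild-type replicate 2 the lower genes numbered 1666, while without wild-type replicate 1 the higher genes numbered 2109.

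**Figure D1:**
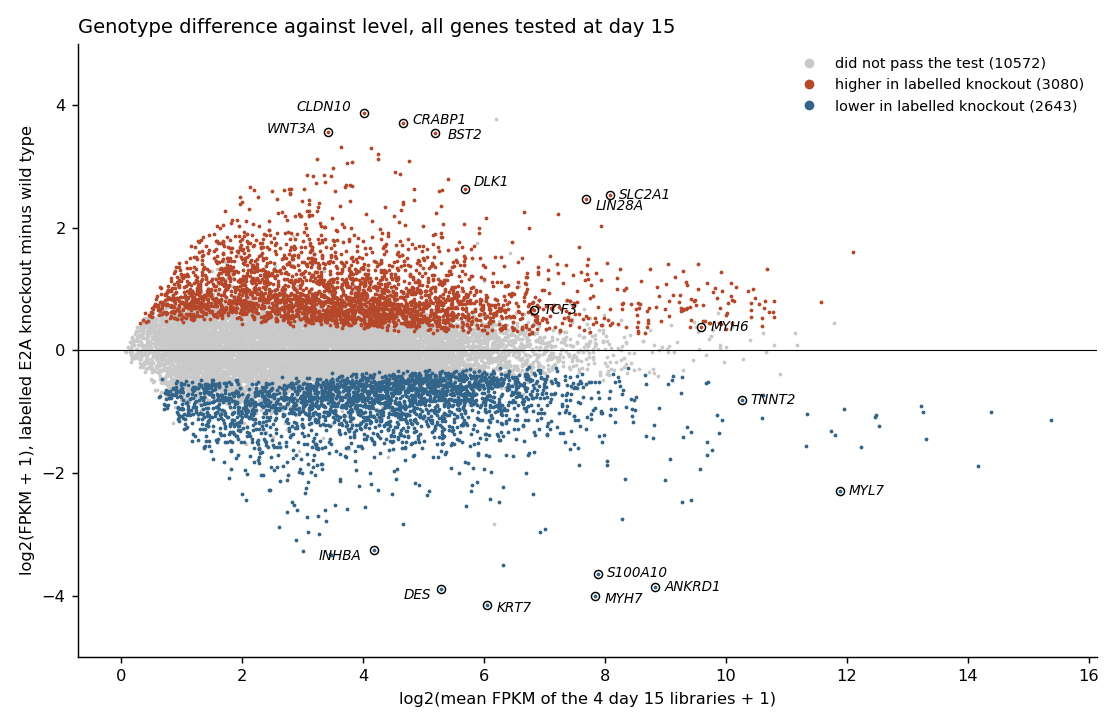
Log2 change (labelled E2A knockout minus wild type, FPKM + 1) of each of the 16295 genes tested at day 15 against the log2 of its mean FPKM + 1 over the 4 libraries; red points passed the test as higher (3080), blue points as lower (2643) and grey points did not pass. The circled genes are described in the text: MYH7, KRT7, DES and ANKRD1 lie near -4 and CLDN10, CRABP1, WNT3A and BST2 near 4.

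The largest falls among genes whose higher group averaged 5 FPKM or more joined parts of the muscle fibre to genes of other kinds. KRT7, a keratin of simple epithelia, stood at 7.76 and 4.62 FPKM in the labelled knockout, against 123 and 126 FPKM in the wild type (log2 change -4.16, SE 0.27, adjusted p = 4.42e-06). MYH7, DES, ANKRD1 and SYNPO2L, all of the muscle fibre, are described with their lists. S100A10, a small protein that carries annexin A2 and membrane proteins to the cell surface, stood at 33.8 and 33.6 FPKM in the labelled knockout and 428 and 441 FPKM in the wild type (log2 change -3.65, SE 0.11, adjusted p = 1.34e-07). The mean FPKM of the labelled knockout was 0.0497 of that of the wild type for KRT7 and 0.0776 for S100A10. The rule that chose these genes required a fall without overlap between the groups. CST1, a secreted inhibitor of cysteine proteases, stood at 1.01 and 0.949 FPKM in the labelled knockout against 19.03 and 18.6 FPKM in the wild type (log2 change -3.32). CAT, catalase, which breaks down hydrogen peroxide, stood at 0.670 and 0.313 FPKM in the labelled knockout against 15.4 and 11.5 FPKM in the wild type (log2 change -3.27). ACOT2, a mitochondrial acyl-CoA thioesterase, stood at 0.906 and 1.07 FPKM in the labelled knockout against 17.7 and 20.8 FPKM in the wild type (log2 change -3.34). POU4F1, a POU homeobox factor of sensory neurons, stood at 0.488 and 0.605 FPKM in the labelled knockout against 11.3 and 13.3 FPKM in the wild type (log2 change -3.10) and CBLN2, a secreted synaptic protein, at 1.32 and 0.963 FPKM in the labelled knockout against 15.3 and 16.8 FPKM in the wild type (log2 change -3.0). The adjusted p of these 5 genes lay between 1.39e-06 (POU4F1) and 1.77e-05 (CAT).

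The largest rises were in genes of signalling, patterning and membranes. CLDN10, a claudin of tight junctions, stood at 27.0 and 31.2 FPKM in the labelled knockout, against 1.17 and 0.935 FPKM in the wild type (log2 change 3.87, SE 0.16, adjusted p = 3.12e-07). CRABP1, a cytoplasmic carrier of retinoic acid, stood at 45.0 and 47.1 FPKM in the labelled knockout and 3.26 and 2.05 FPKM in the wild type (log2 change 3.71, SE 0.17, adjusted p = 7.41e-07). BST2, or tetherin, which holds budding viruses at the cell surface and is induced by interferon in many cells, stood at 71.6 and 60.7 FPKM in the labelled knockout and 4.28 and 5.27 FPKM in the wild type (log2 change 3.54, SE 0.14, adjusted p = 2.76e-07). That both labelled knockout libraries lay above both wild-type libraries in each case was required by the rule that chose these genes. TRH, the precursor of thyrotropin-releasing hormone, stood at 31.9 and 29.4 FPKM in the labelled knockout against 1.90 and 2.53 FPKM in the wild type (log2 change 3.30). DPYSL5, a collapsin response mediator of neurons, stood at 38.5 and 27.9 FPKM in the labelled knockout against 2.62 and 2.73 FPKM in the wild type (log2 change 3.20). CDON, a cell surface co-receptor of hedgehog signals, stood at 51.5 and 42.8 FPKM in the labelled knockout against 4.75 and 4.54 FPKM in the wild type (log2 change 3.09). RIPPLY3, a repressor that acts with T-box factors in the pharyngeal region, stood at 18.6 and 19.6 FPKM in the labelled knockout against 1.68 and 1.43 FPKM in the wild type (log2 change 2.98). WNT3A, IRX1, NR2F1 and CORIN, also among the 12 largest rises, are described with their lists.

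Because E2A proteins bind E-boxes, the stretch of 250 bases before the RefSeq start of the genes with the largest changes was searched for the letters CANNTG (N for any base), which read alike in form on both strands. The sequences are those of the RefSeq promoter table on GRCh38.p14, and of the 11 rises and 12 falls searched 18 had a row. The first 2 falls and the first 2 rises that held the motif, read into an annotated transcript and had at most 29 of their bases inside the annotated gene are printed, from 5′ to 3′ on the strand of the gene, with the E-boxes in capitals. They are CAT (chr11:34438684-34438933, plus strand), POU4F1 (chr13:78603553-78603802, minus strand), CRABP1 (chr15:78340103-78340352, plus strand) and BST2 (chr19:17405631-17405880, minus strand).
CAT: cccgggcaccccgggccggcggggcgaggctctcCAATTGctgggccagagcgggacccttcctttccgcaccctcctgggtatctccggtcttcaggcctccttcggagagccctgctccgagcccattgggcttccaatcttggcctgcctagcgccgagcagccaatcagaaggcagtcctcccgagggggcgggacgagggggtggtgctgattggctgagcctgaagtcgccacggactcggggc
POU4F1: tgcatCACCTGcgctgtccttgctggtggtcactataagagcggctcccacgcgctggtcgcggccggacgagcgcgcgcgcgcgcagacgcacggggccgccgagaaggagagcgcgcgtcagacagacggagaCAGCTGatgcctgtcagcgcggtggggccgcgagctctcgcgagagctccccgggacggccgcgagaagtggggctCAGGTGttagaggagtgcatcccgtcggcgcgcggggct
CRABP1: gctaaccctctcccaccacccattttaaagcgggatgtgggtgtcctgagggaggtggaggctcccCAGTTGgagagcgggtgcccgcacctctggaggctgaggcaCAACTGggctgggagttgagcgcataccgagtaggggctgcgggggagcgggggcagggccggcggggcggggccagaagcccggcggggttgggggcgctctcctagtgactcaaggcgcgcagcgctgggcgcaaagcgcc
BST2: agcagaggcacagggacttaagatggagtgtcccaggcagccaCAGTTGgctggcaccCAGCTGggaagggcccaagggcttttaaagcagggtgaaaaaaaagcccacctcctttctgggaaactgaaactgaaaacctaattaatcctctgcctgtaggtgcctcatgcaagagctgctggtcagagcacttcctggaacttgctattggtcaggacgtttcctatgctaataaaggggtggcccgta
CAT held 1 such motif, 216 bases before the start, and POU4F1 held 3, at 245, 115 and 39 bases. CRABP1 held 2, at 184 and 143 bases, and BST2 held 2, at 207 and 192 bases. Such a match was common: it was found in 62.2% of all promoters of the table (16985 of 27305) and in 53.2% of those of tested genes (5803 of 10910). It was found in 52.2% of the promoters of higher genes (1142 of 2189) and in 53.4% of those of lower genes (987 of 1847). The narrower forms, the palindrome CAGCTG or the form CAGGTG on either strand, each a special case of CANNTG, were found in 28.5% of all promoters of the table, in 26.5% of those of tested genes, in 25.4% of those of higher genes and in 28.6% of those of lower genes. A match is a description of the letters and not a site of binding, which was not measured here.

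Genes of the sarcomere, the contractile unit of the muscle fibre, were lower in the labelled knockout at day 15, with MYH6 on the other side. In the thick filament list 6 of 8 members tested fell and 1 was higher, with a median log2 change of -1.72. MYH7 (GRCh38 chromosome 14, 23412738 to 23435718, minus strand), the myosin heavy chain of ventricle and slow skeletal muscle, stood at 29.9 and 21.9 FPKM in the labelled knockout, against 395 and 462 FPKM in the wild type (log2 change -4.01, SE 0.17, adjusted p = 3.92e-07). MYH6, the atrial myosin heavy chain, stood at 959 and 786 FPKM in the labelled knockout, against 632 and 702 FPKM in the wild type (log2 change 0.38, SE 0.13, adjusted p = 0.0392). The mean MYH7 of the labelled knockout was thus 0.0604 of that of the wild type, while both of its libraries held more MYH6 than either wild-type library. The call of MYH6 ended without labelled knockout replicate 1 (0.24), wild-type replicate 1 (0.31) or wild-type replicate 2 (0.46), when the day 15 libraries were fitted alone, without the trend, with library weights and with a pseudocount of 0.1. Both genes are neighbours with similar sequences, and the labels do not say how reads that fit both were counted.

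MYL7, the atrial regulatory myosin light chain and the most abundant of these transcripts, stood at 1350.0 and 1204 FPKM in the labelled knockout, against 5961 and 6584 FPKM in the wild type (log2 change -2.30, SE 0.32, adjusted p = 0.000437). TTN, titin, the giant spring that spans the sarcomere from Z-disc to M-line, stood at 22.7 and 31.6 FPKM in the labelled knockout and 106 and 113 FPKM in the wild type (log2 change -1.99, SE 0.26, adjusted p = 0.000310). MYOM1, myomesin, which links thick filaments at the M-line, stood at 37.8 and 42.0 FPKM in the labelled knockout and 109.8 and 113 FPKM in the wild type (log2 change -1.46, SE 0.16, adjusted p = 9.79e-05). Each of them was lower in both labelled knockout libraries. MYH7B, a further slow myosin, was lower by the same test (log2 change -2.27). MYL2, the ventricular light chain, was not analysed here.

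In the thin filament list 9 of 12 members fell and 0 rose (median -1.10). TNNI3, the adult cardiac form of troponin I, stood at 25.0 and 29.02 FPKM in the labelled knockout, against 125 and 135 FPKM in the wild type (log2 change -2.23, SE 0.11, adjusted p = 1.32e-06). TNNI1, the slow skeletal form that the fetal heart uses, stood at 300.5 and 268 FPKM in the labelled knockout and 392 and 344 FPKM in the wild type and did not pass (-0.37, adjusted p = 0.212). Of the pair of troponin I genes, the adult form was at 0.208 of its wild-type mean and the fetal form at 0.773 of its own. TNNT2, cardiac troponin T and the usual marker of cardiomyocytes, stood at 1070.5 and 735 FPKM in the labelled knockout and 1479 and 1622 FPKM in the wild type (log2 change -0.80, SE 0.21, adjusted p = 0.0125), with replicate 1 of the labelled knockout well above replicate 2. All 4 libraries thus held this defining marker of the labelled cell type at 735 FPKM or more. The call of TNNT2 ended without labelled knockout replicate 2 (-0.53) and without wild-type replicate 2 (-0.74), and with a pseudocount of 0.1 (-0.80).

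TNNC1, cardiac troponin C, the calcium sensor of the thin filament, stood at 238 and 249.7 FPKM in the labelled knockout and 801 and 871 FPKM in the wild type (log2 change -1.77, SE 0.16, adjusted p = 2.99e-05). ACTC1, cardiac actin, stood at 478 and 313 FPKM in the labelled knockout and 967 and 992 FPKM in the wild type (log2 change -1.34, SE 0.26, adjusted p = 0.00325). ACTA1, skeletal actin, stood at 30.2 and 23.6 FPKM in the labelled knockout and 205 and 225 FPKM in the wild type (log2 change -2.96, SE 0.18, adjusted p = 3.60e-06). The labelled knockout libraries were the lower ones for all 3 genes, and ACTA1 was reduced further than ACTC1 on this scale. Actin genes resemble one another, so reads may have been shared among them. TPM2, a tropomyosin, fell by the same test (log2 change -1.17).

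In the list of the Z-disc and the cytoskeleton around it, 10 of 15 members fell and 1 rose (median -1.24). DES, desmin, the intermediate filament of muscle, stood at 3.94 and 3.80 FPKM in the labelled knockout, against 65.3 and 78.3 FPKM in the wild type (log2 change -3.90, SE 0.20, adjusted p = 1.32e-06). ANKRD1, a stretch-responsive ankyrin repeat protein bound to titin, stood at 49.3 and 67.8 FPKM in the labelled knockout and 896 and 807 FPKM in the wild type (log2 change -3.85, SE 0.15, adjusted p = 2.76e-07). SYNPO2L, an actin-bundling protein of the Z-disc, stood at 12.7 and 11.0 FPKM in the labelled knockout and 137 and 151 FPKM in the wild type (log2 change -3.50, SE 0.25, adjusted p = 8.19e-06). The means of these 3 were between 0.0539 (DES) and 0.0820 (SYNPO2L) of the wild type. ACTN2, sarcomeric alpha-actinin, fell less, with 91.3 and 70.2 FPKM in the labelled knockout and 289 and 303 FPKM in the wild type (log2 change -1.87, SE 0.33, adjusted p = 0.00162). SYNPO2, the paralog of SYNPO2L, moved the other way, with 17.0 and 13.0 FPKM in the labelled knockout, against 2.201 and 2.08 FPKM in the wild type (log2 change 2.34, SE 0.18, adjusted p = 1.21e-05).

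**Figure D2:**
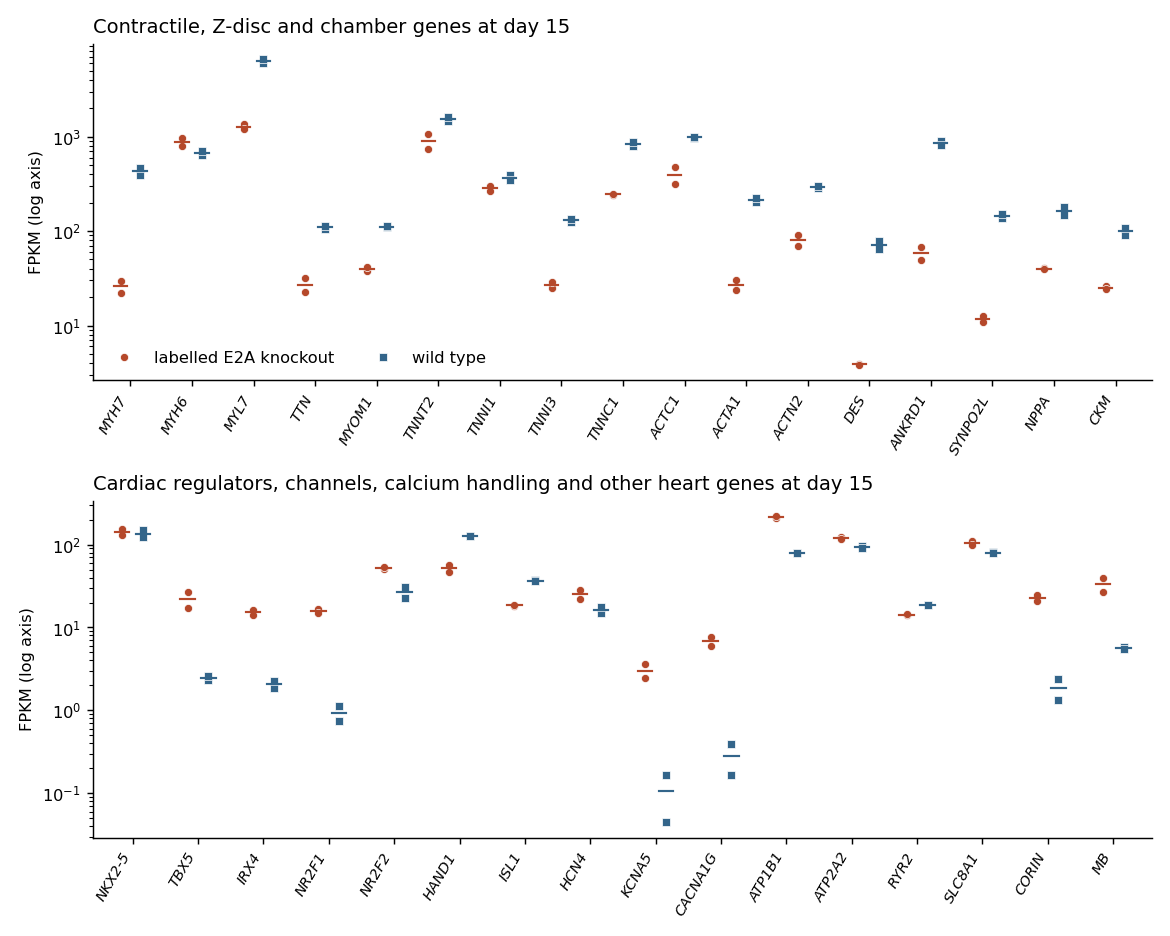
FPKM at day 15 on a log axis for genes of the contractile apparatus and chambers (top) and for cardiac regulators, channels and other heart genes (bottom); circles are the 2 labelled E2A knockout libraries, squares the 2 wild-type libraries and short lines their means. In the top panel the circles lie below the squares except for MYH6, while in the bottom panel HAND1, ISL1 and RYR2 have the circles below, NKX2-5 overlaps and the other genes have the circles on top.

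Smooth muscle markers, a list that shares DES with the last one, were lower in the same libraries. Of 9 tested, 7 fell and 0 rose (median -1.81). Their levels summed to 762 and 697 FPKM in the labelled knockout libraries and 3078 and 3344 FPKM in the wild-type libraries. TAGLN, the actin-binding protein SM22, stood at 223 and 202 FPKM in the labelled knockout and 1105 and 1221 FPKM in the wild type (log2 change -2.45, SE 0.10, adjusted p = 3.12e-07). MYL9, a smooth muscle light chain, stood at 189.6 and 189 FPKM in the labelled knockout and 787 and 864 FPKM in the wild type (log2 change -2.12, SE 0.11, adjusted p = 1.57e-06). CALD1, caldesmon, fell by the same test (log2 change -1.81). Early cardiomyocytes transcribe several of these genes too, and the part of smooth muscle cells in the changes of the sarcomere was not tested.

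Genes of calcium handling, which couple excitation to contraction, were divided: 6 of 15 fell and 4 rose (median -0.30). TRDN, triadin, which anchors calsequestrin at the release channel, stood at 11.6 and 19.9 FPKM in the labelled knockout, against 49.9 and 56.2 FPKM in the wild type (log2 change -1.73, SE 0.26, adjusted p = 0.000646). RYR2, the release channel of the sarcoplasmic reticulum itself, stood at 14.1 and 14.4 FPKM in the labelled knockout and 18.7 and 18.8 FPKM in the wild type and did not pass (log2 change -0.38, adjusted p = 0.128), although both labelled knockout libraries lay below the wild type and it passed with a pseudocount of 5 (-0.30). ATP2A2, the calcium pump SERCA2, stood at 122 and 117 FPKM in the labelled knockout and 96.3 and 90.3 FPKM in the wild type (log2 change 0.35, SE 0.094, adjusted p = 0.0148), a call that ended without wild-type replicate 2 (0.31) and in the day 15 libraries alone. SLC8A1, the sodium-calcium exchanger, stood at 109.8 and 99.9 FPKM in the labelled knockout and 81.1 and 78.2 FPKM in the wild type and did not pass (log2 change 0.39, adjusted p = 0.0644), but it did with a pseudocount of 5 (0.37) or scaled to the nuclear sum (0.40).

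Besides ATP2A2, the members that rose were channels of the surface membrane and ASPH. CACNA1G, a T-type calcium channel of pacemaker and fetal heart cells, stood at 7.77 and 5.99 FPKM in the labelled knockout, against 0.167 and 0.392 FPKM in the wild type (log2 change 2.62, SE 0.19, adjusted p = 1.01e-05). CACNA1D, the L-type channel of the sinoatrial node, stood at 17.6 and 16.0 FPKM in the labelled knockout and 7.90 and 7.17 FPKM in the wild type (log2 change 1.06, SE 0.18, adjusted p = 0.00152). For both, the lower of the labelled knockout libraries was above the higher of the wild-type libraries. ASPH, a locus that encodes junctin and an aspartate hydroxylase, was higher by 0.86 on the log2 scale. PLN, phospholamban, was not analysed here.

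Membrane channels and junctions were more often higher than lower, with 7 of 18 higher and 1 lower (median 0.61). Without labelled knockout replicate 1, 2 were lower. ATP1B1, the beta subunit of the sodium pump, stood at 207 and 219 FPKM in the labelled knockout, against 80.0 and 78.6 FPKM in the wild type (log2 change 1.42, SE 0.095, adjusted p = 5.46e-06). KCNA5, the atrial potassium channel Kv1.5, stood at 3.58 and 2.43 FPKM in the labelled knockout and 0.167 and 0.0447 FPKM in the wild type (log2 change 1.84, SE 0.18, adjusted p = 6.12e-05). Both were higher, though KCNA5 stayed under 5 FPKM in all 4 libraries. GJC1, connexin 45 of the conduction system, rose by 0.99 on the log2 scale. HCN4, the main pacemaker channel, stood at 28.4 and 22.3 FPKM in the labelled knockout and 14.98 and 17.5 FPKM in the wild type (log2 change 0.61, SE 0.16, adjusted p = 0.0155). The call of HCN4 ended without labelled knockout replicate 1 (0.44) or wild-type replicate 1 (0.50), and in the day 15 libraries alone.

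Cardiac transcription factors moved in both directions: 6 of 22 were higher and 7 lower, with a median of -0.04. NKX2-5, a factor of cardiac progenitors and cardiomyocytes alike, stood at 155 and 131 FPKM in the labelled knockout, against 123 and 149 FPKM in the wild type. The groups overlapped (log2 change 0.07, SE 0.19, adjusted p = 0.792). TBX5, a T-box factor of the left ventricle and the atria, stood at 26.7 and 17.1 FPKM in the labelled knockout and 2.30 and 2.62 FPKM in the wild type (log2 change 2.70, SE 0.21, adjusted p = 1.27e-05). IRX4, a homeobox factor of the ventricle, stood at 16.4 and 14.1 FPKM in the labelled knockout and 1.89 and 2.24 FPKM in the wild type (log2 change 2.41, SE 0.21, adjusted p = 2.66e-05). These 2 were at least 6 times as high in the labelled knockout as in the wild type. NR2F1, a nuclear receptor without a known ligand that marks atrial and neural cells, stood at 16.7 and 15.05 FPKM in the labelled knockout and 0.739 and 1.14 FPKM in the wild type (log2 change 3.13, SE 0.20, adjusted p = 4.85e-06), and its paralog NR2F2, of atria and veins, at 51.2 and 54.0 FPKM in the labelled knockout and 22.4 and 31.0 FPKM in the wild type (log2 change 0.97, SE 0.20, adjusted p = 0.00447). HAND1, a helix-loop-helix factor of the left ventricle that pairs with E proteins, stood at 57.5 and 46.5 FPKM in the labelled knockout and 127 and 128 FPKM in the wild type (log2 change -1.28, SE 0.13, adjusted p = 6.33e-05). ISL1, a LIM homeobox factor of the second heart field, stood at 18.4 and 18.6 FPKM in the labelled knockout and 37.1 and 36.0 FPKM in the wild type (log2 change -0.94, SE 0.12, adjusted p = 0.000273). HAND1 and ISL1 were the lower ones here, in both labelled knockout libraries. HAND2 was not analysed here.

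Among natriuretic peptides and genes of the working chambers, 5 of 9 fell and 3 rose (median -0.88). NPPA, the atrial natriuretic peptide, stood at 40.2 and 39.7 FPKM in the labelled knockout, against 147 and 181 FPKM in the wild type (log2 change -2.004, SE 0.17, adjusted p = 2.15e-05). CORIN, the protease that activates that peptide, stood at 24.7 and 20.9 FPKM in the labelled knockout and 2.41 and 1.35 FPKM in the wild type (log2 change 3.07, SE 0.33, adjusted p = 9.24e-05). The peptide and its protease thus moved in opposite directions. CKM, the muscle creatine kinase, stood at 26.4 and 24.1 FPKM in the labelled knockout and 91.8 and 108 FPKM in the wild type (log2 change -1.94, SE 0.15, adjusted p = 1.32e-05). MB, myoglobin, the oxygen store of muscle, stood at 39.5 and 27.0 FPKM in the labelled knockout and 5.76 and 5.49 FPKM in the wild type (log2 change 2.35, SE 0.24, adjusted p = 6.47e-05). NPPB was not analysed here.

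Transcripts of energy metabolism were lower where they serve respiration and higher where they serve glycolysis. All 13 protein-coding transcripts of the mitochondrial genome that were tested fell (median -1.14). MT-CO2, a subunit of cytochrome oxidase, stood at 2425 and 2389 FPKM in the labelled knockout, against 7012 and 7317 FPKM in the wild type (log2 change -1.57, SE 0.11, adjusted p = 9.16e-06). MT-ND1, a subunit of complex I, stood at 2112 and 1823 FPKM in the labelled knockout and 5141 and 5137 FPKM in the wild type (log2 change -1.39, SE 0.11, adjusted p = 1.32e-05). MT-CYB, cytochrome b of complex III, stood at 2019.6 and 1853 FPKM in the labelled knockout and 4281 and 5414 FPKM in the wild type (log2 change -1.31, SE 0.14, adjusted p = 8.41e-05). MT-ND2, also of complex I, changed by -1.56. The wild-type libraries held more than 2 times the labelled knockout level of each of the 4. These genes have nuclear copies of similar sequence, and values scaled to the fragments of a library fall for all other genes as theirs rise. Scaled to the sum of the nuclear genes instead, the day 15 calls were 3287 higher and 2729 lower.

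Nuclear genes of the respiratory chain included 19 that fell and 1 that rose, of 27 tested (median -0.56). ATP5G1, a subunit of the ATP synthase ring, stood at 42.5 and 36.6 FPKM in the labelled knockout, against 106 and 115 FPKM in the wild type (log2 change -1.46, SE 0.14, adjusted p = 5.05e-05). COX5B, of cytochrome oxidase, stood at 81.4 and 119 FPKM in the labelled knockout and 242 and 249.8 FPKM in the wild type (log2 change -1.31, SE 0.16, adjusted p = 0.000182). UQCRB, of complex III, stood at 59.0 and 66.3 FPKM in the labelled knockout and 148 and 131 FPKM in the wild type (log2 change -1.14, SE 0.13, adjusted p = 0.000107). The 2 labelled knockout libraries lay below the wild type in all 3, and CYCS, cytochrome c, fell by the same test (log2 change -0.87). Without wild-type replicate 2, 12 of the list were lower in place of 19, and the higher members numbered between 0 and 2 with 1 library left out.

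In the tricarboxylic acid cycle 6 of 14 members fell and 0 rose (median -0.35). PDHA1, of the pyruvate dehydrogenase complex that feeds the cycle, stood at 135 and 97.4 FPKM in the labelled knockout and 235 and 249.9 FPKM in the wild type (log2 change -1.07, SE 0.15, adjusted p = 0.000491). Without labelled knockout replicate 2, 1 member was higher. DLAT, of the same complex, changed by -0.80 and FH, fumarase, by -0.78, each below the wild type in both libraries. Genes of fatty acid uptake and oxidation included 11 that fell and 1 that rose, of 21 tested (median -0.42), with 6 lower without wild-type replicate 2. FABP3, the fatty acid binding protein of heart, stood at 30.0 and 43.1 FPKM in the labelled knockout, against 186 and 186 FPKM in the wild type (log2 change -2.34, SE 0.19, adjusted p = 1.84e-05). CPT1B, the muscle form of the enzyme that admits long-chain fatty acids to mitochondria, stood at 18.1 and 17.8 FPKM in the labelled knockout and 55.7 and 60.6 FPKM in the wild type (log2 change -1.64, SE 0.16, adjusted p = 4.59e-05). ACADVL, which opens the oxidation of very long chains, stood at 125 and 104 FPKM in the labelled knockout and 259 and 280.0 FPKM in the wild type (log2 change -1.23, SE 0.13, adjusted p = 7.80e-05). The labelled knockout libraries held less than the wild type of each of them, and the member that rose was ACSL1, an acyl-CoA synthetase (1.403).

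Genes of glycolysis and the response to low oxygen included 17 that rose and 1 that fell, of 28 tested (median 0.81). SLC2A1, the glucose transporter GLUT1, stood at 533 and 393 FPKM in the labelled knockout, against 75.2 and 80.9 FPKM in the wild type (log2 change 2.54, SE 0.14, adjusted p = 1.57e-06). HK2, hexokinase 2, which traps glucose in the cell, stood at 69.2 and 58.1 FPKM in the labelled knockout and 14.3 and 14.7 FPKM in the wild type (log2 change 2.06, SE 0.12, adjusted p = 1.97e-06). PFKFB4, which makes an activator of phosphofructokinase, stood at 74.9 and 70.2 FPKM in the labelled knockout and 7.62 and 12 FPKM in the wild type (log2 change 2.80, SE 0.18, adjusted p = 3.77e-06). In each of these 3 genes both labelled knockout libraries lay above both wild-type libraries. P4HA1, a collagen prolyl hydroxylase that low oxygen induces, stood at 68.4 and 77.9 FPKM in the labelled knockout and 21.3 and 19.9 FPKM in the wild type (log2 change 1.78, SE 0.10, adjusted p = 2.25e-06).

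**Figure D3:**
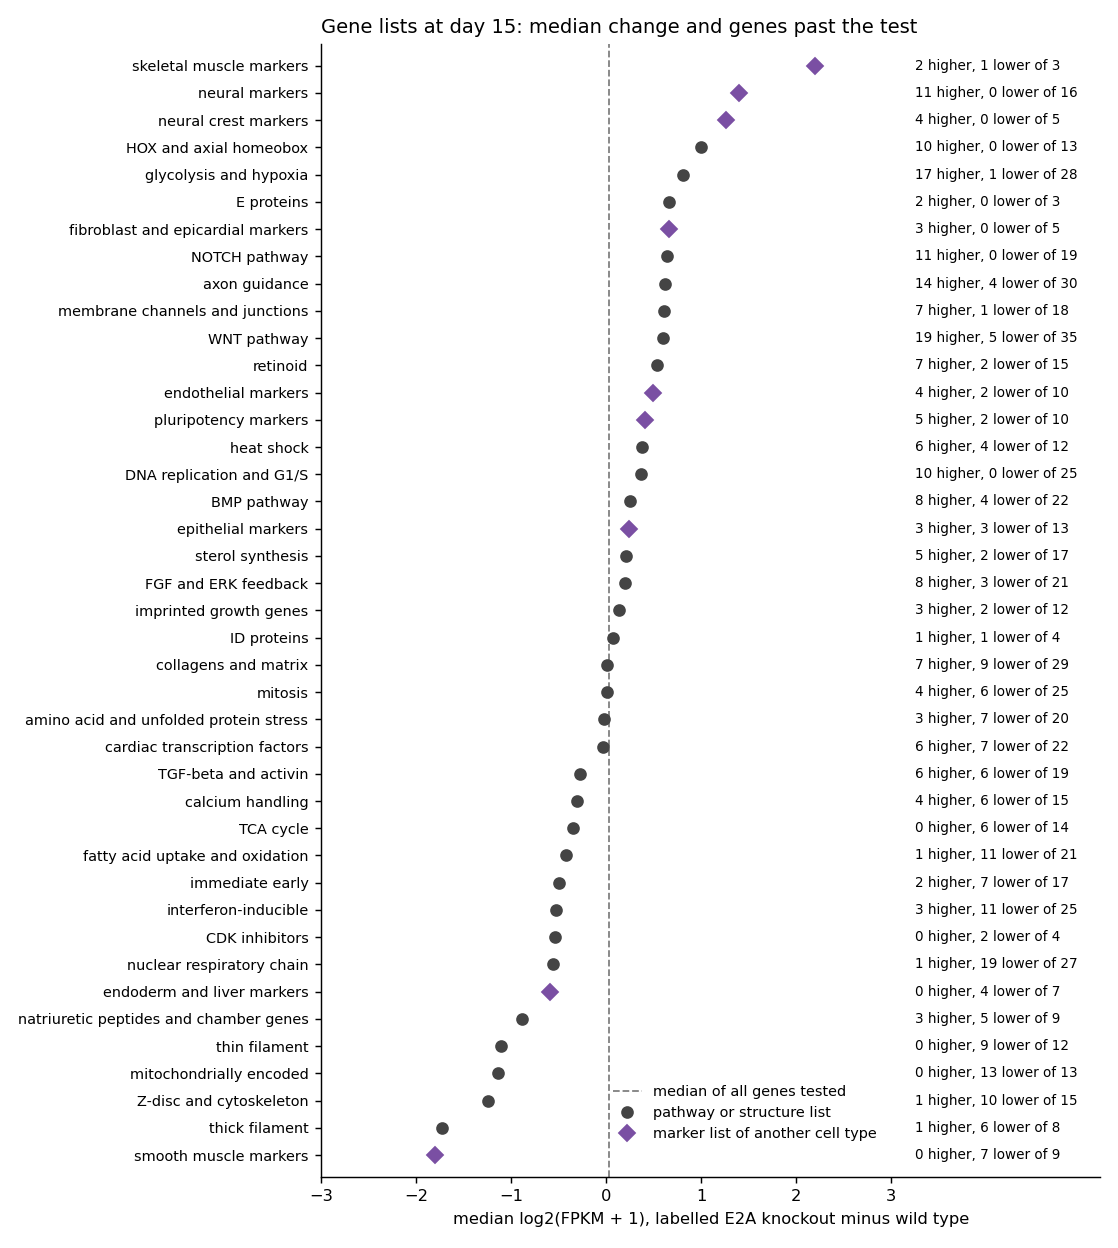
Median log2 change (labelled E2A knockout minus wild type, FPKM + 1) at day 15 of each gene list with at least 3 members tested; circles are lists of pathways or structures, diamonds are marker lists of other cell types, the dashed line is the median of all genes tested (0.03) and the text at the right counts members past the test. Smooth muscle, thick filament, Z-disc and mitochondrially encoded genes lie at the low end, and skeletal muscle (3 members), neural, neural crest, homeobox and glycolysis genes at the high end.

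Signalling genes of the WNT, NOTCH and retinoid pathways were higher more often than lower. In the WNT list 19 of 35 members rose and 5 fell (median 0.60). Of the ligands, WNT3A, which signals through beta-catenin, stood at 20.2 and 17.3 FPKM in the labelled knockout, against 0.438 and 0.936 FPKM in the wild type (log2 change 3.56, SE 0.19, adjusted p = 1.57e-06). Of the receptors, ROR2, which binds WNT5A, stood at 24.2 and 23.4 FPKM in the labelled knockout and 6.17 and 7.41 FPKM in the wild type (log2 change 1.68, SE 0.12, adjusted p = 7.03e-06). AXIN2, a target gene and feedback inhibitor of the beta-catenin branch, stood at 59.7 and 52.8 FPKM in the labelled knockout and 13.8 and 14.97 FPKM in the wild type (log2 change 1.90, SE 0.16, adjusted p = 2.02e-05). This ligand, receptor and target were all higher in both labelled knockout libraries. They are among the 4 members with the smallest p in the list, and the 5 members that fell are not described with them. SFRP2, a secreted WNT antagonist, stood at 101.1 and 87.3 FPKM in the labelled knockout and 22.9 and 25.6 FPKM in the wild type (log2 change 1.91, SE 0.11, adjusted p = 2.09e-06). The lower members numbered 1 without labelled knockout replicate 2, 2 without wild-type replicate 1 and 2 without wild-type replicate 2.

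In the NOTCH list 11 of 19 members rose and 0 fell (median 0.64). DLL1, a ligand, stood at 18.8 and 9.07 FPKM in the labelled knockout, against 1.28 and 0.664 FPKM in the wild type (log2 change 2.86, SE 0.29, adjusted p = 7.27e-05), with replicate 1 of the labelled knockout at about 2 times replicate 2. JAG1, another ligand, stood at 61.5 and 51.2 FPKM in the labelled knockout and 14.6 and 19.1 FPKM in the wild type (log2 change 1.69, SE 0.15, adjusted p = 2.55e-05). NOTCH1, a receptor, stood at 14.1 and 11.0 FPKM in the labelled knockout and 2.94 and 3.41 FPKM in the wild type (log2 change 1.69, SE 0.15, adjusted p = 2.62e-05). All 3 were higher. The lack of overlap between the groups held for every gene that passed, so it does not offset the spread of DLL1. DLK1, a non-canonical ligand encoded at an imprinted locus, stood at 94.3 and 79.9 FPKM in the labelled knockout and 14.0 and 12.2 FPKM in the wild type (log2 change 2.64, SE 0.13, adjusted p = 1.05e-06).

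Retinoid genes included 7 that rose and 2 that fell, of 15 tested (median 0.54). Beside CRABP1, the receptor RARG stood at 8.78 and 7.56 FPKM in the labelled knockout and 2.27 and 4.11 FPKM in the wild type (log2 change 1.16, SE 0.19, adjusted p = 0.00124). RXRG, the partner receptor, changed by 1.14. Genes of the BMP pathway included 8 that rose and 4 that fell, of 22 tested (median 0.26), with 2 lower without labelled knockout replicate 2 and 2 without wild-type replicate 2. BMP7, a ligand, stood at 62.0 and 51.9 FPKM in the labelled knockout, against 16.7 and 18.8 FPKM in the wild type (log2 change 1.63, SE 0.14, adjusted p = 2.55e-05). GREM1, gremlin, a secreted BMP antagonist, stood at 21.2 and 17.7 FPKM in the labelled knockout and 2.89 and 3.09 FPKM in the wild type (log2 change 2.35, SE 0.17, adjusted p = 7.55e-06). MSX1, a homeobox target, stood at 66.0 and 66.7 FPKM in the labelled knockout and 28.5 and 31.2 FPKM in the wild type (log2 change 1.13, SE 0.14, adjusted p = 0.000231). The ligand, its antagonist and the target were all higher, while BAMBI, a decoy receptor and itself a target, was lower (-0.64, adjusted p = 0.000881).

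Among genes of TGF-beta and activin signalling 6 of 19 rose and 6 fell (median -0.28). INHBA, the subunit that forms activin A, stood at 2.31 and 2.49 FPKM in the labelled knockout, against 28.7 and 34.7 FPKM in the wild type (log2 change -3.26, SE 0.24, adjusted p = 1.05e-05). FST, follistatin, which binds and blocks activin, stood at 25.5 and 31.4 FPKM in the labelled knockout and 79.8 and 86.9 FPKM in the wild type (log2 change -1.53, SE 0.14, adjusted p = 3.44e-05). The ligand and its antagonist were thus both lower in the labelled knockout. TGFBR1, a receptor, stood at 30.9 and 34.7 FPKM in the labelled knockout and 13.9 and 11.3 FPKM in the wild type (log2 change 1.32, SE 0.13, adjusted p = 6.72e-05). FSTL1, a secreted relative of follistatin, stood at 371 and 276 FPKM in the labelled knockout and 132 and 134 FPKM in the wild type (log2 change 1.26, SE 0.15, adjusted p = 0.000209). In the list of FGF and ERK feedback 8 of 21 rose and 3 fell (median 0.20). The receptor FGFR2 changed by 1.02 and the feedback inhibitor SPRY1 by 1.58, while 2 other inhibitors that ERK induces, SPRY4 and DUSP6, changed by -1.10 and -0.85.

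Homeobox genes of the body axis were higher, in 10 of 13 cases with 0 lower (median 1.00). IRX1, an Iroquois factor, stood at 24.3 and 18.6 FPKM in the labelled knockout, against 1.25 and 1.19 FPKM in the wild type (log2 change 3.33, SE 0.15, adjusted p = 7.41e-07). IRX2, its neighbour on the chromosome, stood at 16.4 and 17.3 FPKM in the labelled knockout and 1.63 and 1.29 FPKM in the wild type (log2 change 2.86, SE 0.15, adjusted p = 1.39e-06). IRX3, of the second Iroquois cluster, stood at 47.2 and 47.1 FPKM in the labelled knockout and 17.3 and 11.0 FPKM in the wild type (log2 change 1.70, SE 0.17, adjusted p = 6.59e-05). Together with IRX4, named above, and IRX5 (1.64), all 5 Iroquois genes tested were higher in both labelled knockout libraries. Genes of axon guidance included 14 that rose and 4 that fell, of 30 tested (median 0.62). EFNA5, an ephrin ligand, stood at 40.6 and 24.7 FPKM in the labelled knockout and 8.17 and 7.24 FPKM in the wild type (log2 change 1.91, SE 0.24, adjusted p = 0.000223). SEMA3F, a secreted semaphorin, stood at 35.2 and 23.8 FPKM in the labelled knockout and 7.67 and 7.402 FPKM in the wild type (log2 change 1.81, SE 0.16, adjusted p = 3.12e-05). PLXNA4, a semaphorin receptor, changed by 1.66 and EFNB1, a further ephrin, by 1.16. The lower members of this list numbered 2 without labelled knockout replicate 2, 2 without wild-type replicate 1 and 1 without wild-type replicate 2.

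Neural markers were higher in the same libraries. Of 16 tested 11 rose and 0 fell (median 1.402). Their levels summed to 450.2 and 419.8 FPKM in the labelled knockout libraries and 241 and 267 FPKM in the wild-type libraries. Without labelled knockout replicate 1, 1 was lower. ZIC2, a zinc finger factor of neural and somite progenitors, stood at 41.8 and 41.7 FPKM in the labelled knockout, against 5.02 and 4.68 FPKM in the wild type (log2 change 2.87, SE 0.10, adjusted p = 2.04e-07). ZIC1, a related factor, stood at 42.4 and 37.2 FPKM in the labelled knockout and 4.001 and 4.802 FPKM in the wild type (log2 change 2.92, SE 0.25, adjusted p = 2.66e-05). SOX2, of pluripotent and neural progenitor cells, stood at 39.8 and 55.6 FPKM in the labelled knockout and 6.73 and 8.84 FPKM in the wild type (log2 change 2.46, SE 0.16, adjusted p = 4.99e-06). These progenitor factors were at least 4 times as high in the labelled knockout as in the wild type. SOX3 changed by 2.44, and SOX21 by 1.14 at no more than 2.71 FPKM in any of the 4 libraries. Of genes of the neuronal cytoskeleton, MAP2, at 21.6 and 21.8 FPKM in the labelled knockout and 5.30 and 4.95 FPKM in the wild type, and NEFM, at 13.4 and 16.1 FPKM in the labelled knockout and 0.991 and 1.42 FPKM in the wild type, rose (log2 changes 1.89 and 2.84), both named after their values were seen. The most abundant members that did not pass were NES, nestin, of neural progenitors and early muscle, at 153 and 132 FPKM in the labelled knockout and 162 and 179 FPKM in the wild type (adjusted p = 0.0907). TUBB3, neuronal tubulin, stood at 28.8 and 26.5 FPKM in the labelled knockout and 28.5 and 31.7 FPKM in the wild type (adjusted p = 0.414). Outside this list, the neuronal genes POU4F1 and CBLN2 were lower and DPYSL5 was higher, as given above.

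Of the neural crest markers 4 of 5 rose and 0 fell (median 1.26), and 2 were higher without labelled knockout replicate 1, 2 without wild-type replicate 1 and 2 without wild-type replicate 2. SOX10, a factor of crest and glia, stood at 3.85 and 3.89 FPKM in the labelled knockout against 1.91 and 0.00196 FPKM in the wild type, with 1 wild-type library near 0. SOX10 and TFAP2A (log2 changes 1.51 and 1.26) each lost the call without at least 1 library, and TFAP2A lost it without any single one. Pluripotency markers included 5 that rose and 2 that fell, of 10 tested (median 0.41), with a summed level of 559 and 529.8 FPKM in the labelled knockout libraries and 182 and 201 FPKM in the wild-type libraries. The lower members numbered 1 without labelled knockout replicate 1, wild-type replicate 1 or wild-type replicate 2. LIN28A, an RNA-binding protein of stem cells and early progenitors, was the most abundant member, with 366 and 333 FPKM in the labelled knockout, against 60.7 and 64.3 FPKM in the wild type (log2 change 2.46, SE 0.10, adjusted p = 2.76e-07). SALL4, a zinc finger factor of stem cells, stood at 39.3 and 35.6 FPKM in the labelled knockout and 13.2 and 17.3 FPKM in the wild type (log2 change 1.25, SE 0.13, adjusted p = 7.80e-05). POU5F1, or OCT4, which defines pluripotent cells and was the most abundant member that did not pass, stood at 39.1 and 27.5 FPKM in the labelled knockout and 23.4 and 36.7 FPKM in the wild type and overlapped between the groups (adjusted p = 0.566). TDGF1, or CRIPTO, a NODAL co-receptor of pluripotent cells, fell, with 1.84 and 1.94 FPKM in the labelled knockout and 13.5 and 11.96 FPKM in the wild type (log2 change -2.25, SE 0.14, adjusted p = 4.42e-06). The 2 lists share SOX2, and the part of neural or undifferentiated cells in the changes of the WNT, NOTCH, homeobox and axon guidance genes was not tested.

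Markers of the other cell types gave a mixed picture. Endothelial markers included 4 that rose and 2 that fell, of 10 tested (median 0.50, summed level 115 and 99.3 FPKM in the labelled knockout libraries and 104 and 103 FPKM in the wild-type libraries). Without labelled knockout replicate 2, wild-type replicate 1 or wild-type replicate 2, 0 were lower. CDH5, vascular endothelial cadherin, stood at 7.14 and 6.20 FPKM in the labelled knockout and 2.41 and 2.04 FPKM in the wild type (log2 change 1.25, SE 0.20, adjusted p = 0.00109). EGFL7, a secreted vessel protein, changed by 0.77, and ERG, an ETS factor of vessels, by 1.04. The mean of ERG was low, at 1.76 FPKM in the labelled knockout and 0.318 FPKM in the wild type. Of the 2 members that fell, SOX17 (-0.59) is given below with the endoderm markers, and the other is not described. Of the fibroblast and epicardial markers 3 of 5 rose and 0 fell (median 0.66). THY1, a surface protein of fibroblasts and neurons, stood at 24.3 and 10.6 FPKM in the labelled knockout, against 3.49 and 2.27 FPKM in the wild type (log2 change 2.16, SE 0.31, adjusted p = 0.000484). PDGFRB, a growth factor receptor of mural cells, changed by 1.06 and PDGFRA by 0.66. The call of PDGFRB ended without wild-type replicate 1 (0.97), and that of PDGFRA without wild-type replicate 2 or labelled knockout replicate 1 (0.65 and 0.46) and in the day 15 libraries alone. WT1, TCF21 and POSTN, which define these cells best, were not analysed here.

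Endoderm and liver markers included 4 that fell and 0 that rose, of 7 tested (median -0.59), with a summed level of 57.3 and 61.1 FPKM in the labelled knockout libraries and 257 and 270.5 FPKM in the wild-type libraries. APOA1, an apolipoprotein of liver and gut, stood at 20.2 and 24.2 FPKM in the labelled knockout, against 118 and 138 FPKM in the wild type (log2 change -2.48, SE 0.24, adjusted p = 5.41e-05). APOA2 stood at 19.6 and 21.6 FPKM in the labelled knockout and 118 and 112 FPKM in the wild type (log2 change -2.43, SE 0.15, adjusted p = 3.05e-06). APOB changed by -0.82. SOX17, of endoderm and vessels, changed by -0.59, which did not pass without labelled knockout replicate 2 (-0.41), wild-type replicate 1 (-0.51) or wild-type replicate 2 (-0.68), nor in the day 15 libraries alone, with library weights or with a pseudocount of 5. Epithelial markers included 3 that rose and 3 that fell, of 13 tested (23.1% each, median 0.24), beside 18.9% higher and 16.2% lower of all genes tested. Without labelled knockout replicate 2, 8 were higher. KRT18, a keratin of simple epithelia and early cardiomyocytes, stood at 403 and 368 FPKM in the labelled knockout and 881 and 962 FPKM in the wild type (log2 change -1.25, SE 0.10, adjusted p = 1.68e-05) and moved with KRT7, while CLDN10 and GRHL2, an epithelial factor (0.78), moved the other way. Of 17 skeletal muscle markers fixed, 3 were tested. ACTN3, the alpha-actinin of fast fibres, stood at 28.3 and 18.7 FPKM in the labelled knockout, against 2.62 and 2.88 FPKM in the wild type (log2 change 2.68, SE 0.17, adjusted p = 3.60e-06). PAX3, a factor of somite, neural tube and muscle progenitors, stood at 13.3 and 12.9 FPKM in the labelled knockout and 2.10 and 2.06 FPKM in the wild type (log2 change 2.19, SE 0.18, adjusted p = 1.92e-05), both higher. MYH3, embryonic myosin, changed by -0.98, a call that ended without labelled knockout replicate 2 (-0.78) or wild-type replicate 2 (-0.66), with library weights or with a pseudocount of 0.1 (-1.33). RUNX1, the blood marker tested, did not pass (0.15, adjusted p = 0.615).

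Of the list of DNA replication and G1/S 10 of 25 genes rose, 0 fell and 15 did not pass (median 0.36), with 6 higher without labelled knockout replicate 1. MCM2, of the replicative helicase, stood at 56.3 and 43.0 FPKM in the labelled knockout, against 16.2 and 13.7 FPKM in the wild type (log2 change 1.66, SE 0.17, adjusted p = 7.28e-05). RRM1, of ribonucleotide reductase, stood at 78.5 and 53.2 FPKM in the labelled knockout and 31.8 and 23.4 FPKM in the wild type (log2 change 1.21, SE 0.19, adjusted p = 0.000962). Both lay above the wild type in both labelled knockout libraries, as did MCM6 (0.80) and the DNA polymerase subunit POLA1 (0.83). Of the mitosis list 4 of 25 rose (16%) and 6 fell (24%), beside 18.9% and 16.2% of all genes tested (median 0.01). The higher members numbered 0 without wild-type replicate 1 and 2 without wild-type replicate 2. CENPF, a kinetochore protein, stood at 18.2 and 12.5 FPKM in the labelled knockout and 36.4 and 34.5 FPKM in the wild type (log2 change -1.18, SE 0.23, adjusted p = 0.00288). CENPE, a kinetochore motor, and KIF23, a motor of cell division, changed by -1.54 and -0.80. TOP2A, topoisomerase II of dividing cells, stood at 37.5 and 39.0 FPKM in the labelled knockout and 54.5 and 61.4 FPKM in the wild type (log2 change -0.58, SE 0.14, adjusted p = 0.00743), a call that ended without wild-type replicate 2 (-0.50). MKI67, the Ki-67 proliferation marker, stood at 14.5 and 12.5 FPKM in the labelled knockout and 8.63 and 10.3 FPKM in the wild type (log2 change 0.47, SE 0.16, adjusted p = 0.0449), and it did not pass without labelled knockout replicate 1 (0.37), wild-type replicate 1 (0.35) or wild-type replicate 2 (0.59), nor in 4 further alternatives (the day 15 libraries alone, library weights, no trend and a pseudocount of 5).

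Of the CDK inhibitors 2 of 4 fell and 0 rose, or 1 without labelled knockout replicate 2. CDKN1A, the inhibitor p21, stood at 0.797 and 0.533 FPKM in the labelled knockout, against 2.45 and 3.05 FPKM in the wild type (log2 change -1.17, SE 0.20, adjusted p = 0.00145). CDKN2D, p19, changed by -0.85. PHLDA3, an inhibitor of AKT, stood at 3.04 and 1.94 FPKM in the labelled knockout and 3.82 and 3.77 FPKM in the wild type and did not pass (log2 change -0.48, adjusted p = 0.0969), except without labelled knockout replicate 1 (-0.70).

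Matrix genes were divided as well, with 7 of 29 higher (24.1%) and 9 lower (31.0%), beside 18.9% and 16.2% of all genes tested (median 0.01). FN1, fibronectin, stood at 405 and 364 FPKM in the labelled knockout, against 1275 and 1246 FPKM in the wild type (log2 change -1.71, SE 0.10, adjusted p = 1.99e-06). The laminins LAMA1 and LAMB1 changed by -1.43 and -1.13. FBN2, the fibrillin of embryonic microfibrils, stood at 268 and 219.6 FPKM in the labelled knockout and 52.6 and 49.7 FPKM in the wild type (log2 change 2.22, SE 0.14, adjusted p = 3.65e-06). The fibronectin and both laminins, parts of the basement membrane and its surroundings, were thus lower in both labelled knockout libraries while this fibrillin was higher. Imprinted growth genes included 3 that rose (25%) and 2 that fell (16.7%), of 12 tested (median 0.14). These shares were near the 18.9% and 16.2% of all genes tested. H19, a long non-coding RNA, stood at 332 and 296 FPKM in the labelled knockout, against 1123 and 1299 FPKM in the wild type (log2 change -1.94, SE 0.13, adjusted p = 6.87e-06). IGF2, the growth factor of the same imprinted locus, stood at 91.4 and 76.9 FPKM in the labelled knockout and 242 and 272 FPKM in the wild type (log2 change -1.60, SE 0.14, adjusted p = 3.01e-05). Both transcripts of that locus were lower, whereas DLK1 and PLAGL1, a zinc finger factor (1.06), were higher.

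Immediate early and interferon-inducible genes were lower more often than higher. Immediate early genes included 7 that fell and 2 that rose, of 17 tested (median -0.50), with 1 higher without labelled knockout replicate 1, 1 without wild-type replicate 1 and 0 without wild-type replicate 2. CYR61, a matricellular target of YAP, stood at 52.99 and 47.6 FPKM in the labelled knockout, against 157 and 167 FPKM in the wild type (log2 change -1.67, SE 0.11, adjusted p = 5.38e-06). IER3, of the same class, stood at 22.2 and 23.0 FPKM in the labelled knockout and 88.4 and 87.8 FPKM in the wild type (log2 change -1.92, SE 0.14, adjusted p = 7.71e-06). The factors KLF6 and JUN changed by -1.52 and -1.24. Interferon-inducible genes included 11 that fell and 3 that rose, of 25 tested (median -0.52), with 7 lower without labelled knockout replicate 2 and 7 without wild-type replicate 2. ISG15, a ubiquitin-like protein, stood at 9.32 and 8.07 FPKM in the labelled knockout and 31.0 and 42.2 FPKM in the wild type (log2 change -1.94, SE 0.17, adjusted p = 2.71e-05). B2M, the light chain of HLA class I, stood at 169 and 153 FPKM in the labelled knockout and 345 and 310.4 FPKM in the wild type (log2 change -1.02, SE 0.11, adjusted p = 0.000110). HLA-C, one of several similar heavy chain genes, changed by -0.98. BST2, counted in the same list, was higher while these 3 were lower.

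Genes of amino acid shortage and unfolded protein stress included 7 that fell and 3 that rose, of 20 tested (median -0.02). Without labelled knockout replicate 1, 5 were higher. ATF4, a transcription factor of this list, stood at 199 and 170.4 FPKM in the labelled knockout, against 338 and 378 FPKM in the wild type (log2 change -0.96, SE 0.13, adjusted p = 0.000337). Its target CHAC1, which degrades glutathione, stood at 9.28 and 6.45 FPKM in the labelled knockout and 34.1 and 39.3 FPKM in the wild type (log2 change -2.10, SE 0.20, adjusted p = 4.29e-05), and DDIT3, or CHOP, changed by -1.37. ATF4, CHAC1 and DDIT3 were lower in both labelled knockout libraries, while SHMT2, a mitochondrial enzyme of serine metabolism in the same list, was higher (1.23). Heat shock genes included 6 that rose and 4 that fell, of 12 tested (median 0.38), or 2 lower without wild-type replicate 2. HSPA8, a constitutive chaperone, stood at 679 and 543 FPKM in the labelled knockout, against 226 and 257 FPKM in the wild type (log2 change 1.33, SE 0.13, adjusted p = 6.43e-05). HSP90AB1 changed by 0.74 and HSPA1B, which has a near-identical copy, by 0.83. HSPB1, a small heat shock protein abundant in muscle, stood at 242 and 236 FPKM in the labelled knockout and 599 and 694 FPKM in the wild type (log2 change -1.43, SE 0.15, adjusted p = 9.09e-05). Sterol synthesis genes included 5 that rose and 2 that fell, of 17 tested (median 0.21), with 2 higher without wild-type replicate 1, and 3 higher and 1 lower without wild-type replicate 2. FDFT1 and SQLE, enzymes of that pathway, changed by 0.64 and 0.42. Both calls ended without 1 wild-type replicate (0.43 without replicate 1, 0.38 without replicate 2), that of SQLE also in the day 15 libraries alone, and MVD changed by -0.73.

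The genotype difference of day 15 was shared with day 7 for some genes and differed from it for others. The change at day 15 minus the change at day 7, tested as an interaction in the same fit, passed for 5173 genes (31.7%), 2698 higher at day 15 (16.6%) and 2475 lower (15.2%). Scaled to the sum of the nuclear genes, these were 2098 higher and 3466 lower, and the median over all genes tested was -0.17 in place of -0.01, so the split of that count depends on how the mitochondrial share is treated. Of the 5723 genes that passed at day 15, 2026 had also passed in the same direction at day 7, 886 had passed in the opposite direction and 2811 had not passed. At day 7, 3602 genes were higher (22.1%) and 3250 lower (19.9%). The libraries of the 2 days are different samples, so these comparisons share no controls.

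Glycolytic and mitochondrially encoded transcripts changed order between the days, under either scaling. The median change of glycolysis and hypoxia genes was 0.81 at day 15 and -1.11 at day 7, and the interaction passed as higher at day 15 for 25 of 28 members (24 when scaled to the nuclear sum) and as lower for 0. SLC2A1 stood at day 7 at 196 and 176 FPKM in the labelled knockout and 259 and 289.9 FPKM in the wild type, so that at day 15 its labelled knockout level was higher than at day 7 and its wild-type level lower (interaction 3.10, SE 0.19, adjusted p = 6.16e-06). The mitochondrially encoded transcripts went the other way, with medians of -1.14 at day 15 and 1.59 at day 7, and all 13 interactions passed as lower. MT-CO2 stood at day 7 at 4444 and 3869 FPKM in the labelled knockout and 1811 and 1884 FPKM in the wild type (interaction -2.74, SE 0.16, adjusted p = 5.01e-06). For nuclear genes of the respiratory chain the medians were -0.56 at day 15 and -0.77 at day 7. Of their 27 interactions 4 passed as higher and 1 as lower, beside 16.6% and 15.2% of all genes tested.

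Cardiac regulators, channels and calcium genes had higher changes at day 15 than at day 7. Cardiac transcription factors had medians of -0.04 at day 15 and -1.09 at day 7, and 14 of 22 interactions passed as higher and 2 as lower. NKX2-5 stood at day 7 at 44.8 and 42.5 FPKM in the labelled knockout and 204 and 223 FPKM in the wild type, well apart, whereas at day 15 the groups overlapped (interaction 2.34, SE 0.27, adjusted p = 0.000231). MYH6 stood at day 7 at 555 and 463 FPKM in the labelled knockout and 1921 and 1848 FPKM in the wild type (interaction 2.27, SE 0.18, adjusted p = 2.30e-05). Membrane channels and junctions had 12 interactions higher and 0 lower of 18 (9 higher when scaled to the nuclear sum), and calcium handling genes 7 and 0 of 15. Filament genes had interactions in both directions, to be read beside 16.6% higher and 15.2% lower of all genes tested. The thick filament list had 3 interactions higher and 2 lower of 8, the thin filament list 5 and 3 of 12, and the Z-disc list 4 and 6 of 15. MYH7 was low on both days (-4.01 at day 15 and -4.29 at day 7), and its interaction was 0.28.

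**Figure D4:**
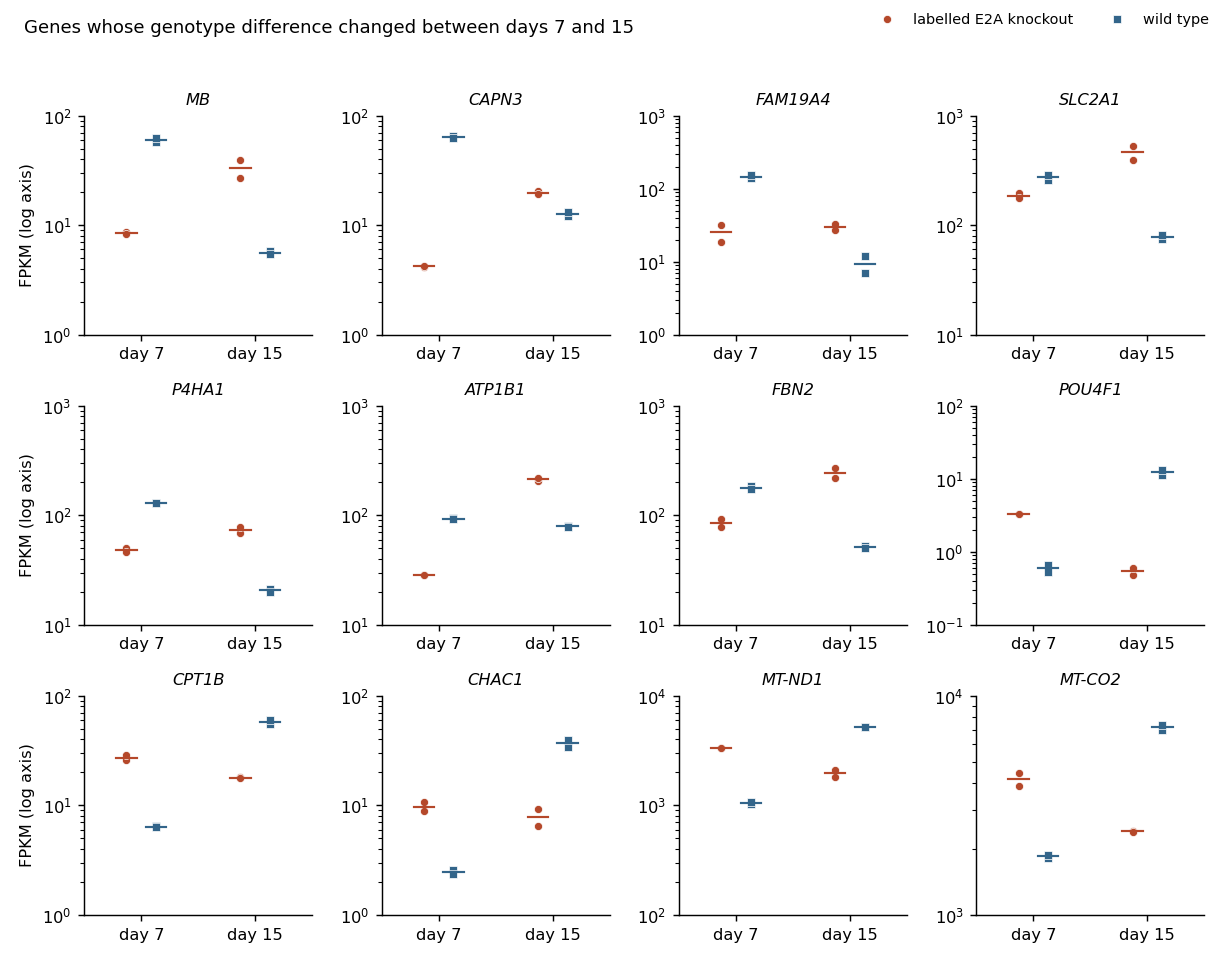
FPKM on a log axis at days 7 and 15 for 12 genes whose genotype difference changed between these days; circles are the 2 labelled E2A knockout libraries of each day, squares the 2 wild-type libraries and short lines their means. In MB, CAPN3, FAM19A4, SLC2A1, P4HA1, ATP1B1 and FBN2 the circles lie below the squares at day 7 and above them at day 15, and in POU4F1, CPT1B, CHAC1, MT-ND1 and MT-CO2 the order is the reverse.

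The 2 labelled knockout libraries of day 15 differed from each other more than those of any other group. The median absolute difference between the libraries of a group was 0.279 on the log2 scale in the labelled knockout at day 15, against 0.183 in the wild type of that day and 0.134 to 0.194 in the 4 groups of days 3 and 7. The pooled SD was 0.323, against 0.244 in the wild type of day 15 and 0.208 to 0.267 in the 4 other groups, and 597 genes (3.66%) differed by more than 1 in the labelled knockout, against 255 (1.56%) in the wild type. The correlation between the 2 libraries across genes, which are no independent replicates, was 0.973 in the labelled knockout and 0.985 in the wild type. This spread is a description and was not tested. As the fit shares one estimate of the spread among all groups, the SE of a gene that varied more in this pair is too small. The median of replicate 1 minus replicate 2 was 0.10 over all genes tested, and over the lists with at least 4 members it lay between -0.12 (ID proteins) and 0.41 (fibroblast and epicardial markers). It was 0.64 for the 3 E proteins, TCF3 among them.

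**Figure D5:**
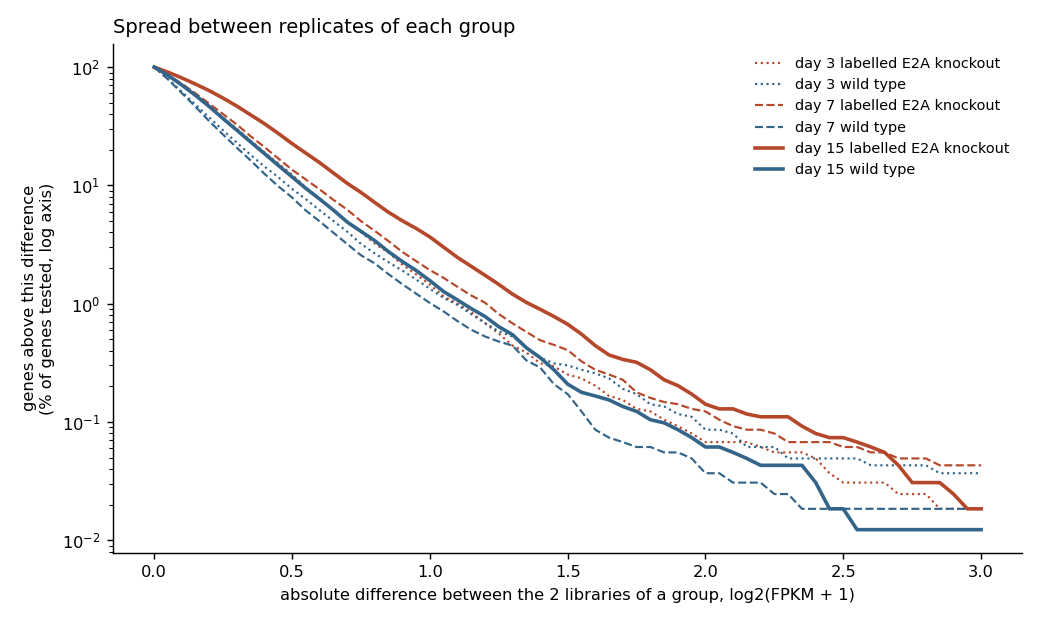
Percent of the 16295 genes tested (log axis) whose 2 libraries of a group differ by more than the value on the x axis, in log2(FPKM + 1), with 1 line for each of the 6 groups; red lines are labelled E2A knockout, blue lines wild type, and solid lines are day 15. The solid red line lies above the others up to about 2.5, and 3.66% of genes exceed a difference of 1 there, against 1.56% in the wild type of day 15.

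The genes with the largest gap between the labelled knockout libraries, at 20 FPKM or more in the higher of them, included non-coding, duplicated and antisense genes. XXbac-BPG252P9.9 stood at 116 and 1.202 FPKM in the labelled knockout against 25.0 and 8.30 FPKM in the wild type, a gap of 5.74 between its labelled knockout libraries. SMN1, the gene of the survival motor neuron protein, has a near-identical copy and stood at 66.2 and 9.07 FPKM in the labelled knockout against 8.85 and 9.36 FPKM in the wild type. MRPS27, of the mitochondrial ribosome, stood at 161 and 31.2 FPKM in the labelled knockout against 21.3 and 19.8 FPKM in the wild type. SPCS2P4, a processed pseudogene, stood at 57.0 and 11.9 FPKM in the labelled knockout against 25.2 and 10.7 FPKM in the wild type. RN7SL3, a signal recognition particle RNA with many copies, stood at 26.1 and 5.57 FPKM in the labelled knockout against 12.8 and 35.1 FPKM in the wild type, and POLR2J3, one of several similar polymerase subunit genes, at 35.9 and 8.84 FPKM in the labelled knockout against 22.8 and 22.2 FPKM in the wild type. In these 6, replicate 1 of the labelled knockout was the higher one. Replicate 2 was higher in RP11-632C17__A.1, with 10.1 and 122 FPKM in the labelled knockout against 42.3 and 61.2 FPKM in the wild type (gap -3.47). The same held for TMPO-AS1, an antisense transcript, with 1.42 and 21.2 FPKM in the labelled knockout against 0.974 and 1.05 FPKM in the wild type, and for RP11-343H5.4, with 67.9 and 510.1 FPKM in the labelled knockout against 202 and 275 FPKM in the wild type. It was also higher in SNURF, of the imprinted SNRPN locus, with 10.9 and 74.0 FPKM in the labelled knockout against 31.4 and 35.4 FPKM in the wild type. MKKS, a chaperonin-like protein, also stood higher there, with 5.53 and 41.1 FPKM in the labelled knockout against 108 and 128 FPKM in the wild type, as did SERF1B, a duplicated neighbour of SMN1, with 3.70 and 26.0 FPKM in the labelled knockout against 3.57 and 3.56 FPKM in the wild type. None of these 12 genes passed the comparison of the groups, but 8 did so without 1 of the labelled knockout libraries. MKKS (log2 change -2.84) passed without replicate 2 (-4.18) and in the day 15 libraries alone.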

How the data were processed

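Total RNA was extracted with Trizol, made into Illumina libraries from 1 ug and sequenced on a HiSeq X10, per the labels. BWA and GRCh38 (hg38) are named in the submitters' processing notes. Quantifier, annotation, strand setting and treatment of reads that fit several genes: not given in the sources used here. Values of overlapping, antisense and duplicated genes are therefore uncertain. The deposited values are taken as FPKM that the authors computed per gene symbol. That unit is not stated and was inferred from values that are not whole and sum to 577716 to 734958 per library. All 17096 rows held values above 0 in all libraries. No counts are given and the depth is unknown, so no counting interval was computed.

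From these values, log2(FPKM + 1) was fitted with limma 3.58.1 (trend, R 4.3.3) to 6 group means over all 12 libraries, leaving 6 residual degrees of freedom. Genes at 1 FPKM or more in at least 2 of the 12 libraries were tested (16295, with 801 left out). Tests were two-sided, with Benjamini-Hochberg adjustment over all genes tested and a threshold of 0.05. The contrasts were day 15, day 7 and their difference. Samples were grouped by title. The fit was also run on simulated data with known changes, where recovery of the larger changes and the median estimates were checked. No limit was set on the share of false calls. Symbols altered to dates (22) and symbols listed more than once (9) were tested but are not named. Coordinates are those of GENCODE 29, which placed 15039 symbols (88.0%), and promoters those of RefSeq on GRCh38.p14.

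The members and the 42 gene lists were chosen with earlier results of these data known. The text names 40 core genes (4 of them not tested) and the 12 largest rises and falls at 5 FPKM or more. Those rises and falls were also required to have passed and not to overlap between the groups. Up to 4 members with the smallest p in each list are named. The most abundant members that did not pass are given only for the neural and the pluripotency lists. The 5 largest interactions and the 6 largest gaps of each direction are named too. Some genes that this rule names, and 1 further list, are not reported here. Of the 192 genes left 172 passed the test, and NES, TUBB3, POU5F1, MAP2, NEFM and RUNX1 are not among these 192. Alternatives covered the pseudocount, the filter, the scaling, the trend, library weights, the samples fitted, a replicate block and each library left out. Numbers 1 and 2 are taken as names of replicates, not as pairs.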

Additional observations from a re-analysis of the deposited data

Results flagged for a closer look

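The genotype effect differed between day 15 and day 7, by the interaction term of the fit, for 2698 genes higher and 2475 genes lower at day 15. The largest differences of each direction among genes that also passed at day 15, 4 higher and 5 lower, are given here, as log2 change at day 15 minus log2 change at day 7.

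MB, myoglobin, had a difference of 5.02, with 8.66 and 8.36 FPKM in the labelled knockout and 56.8 and 62.7 FPKM in the wild type at day 7 and 39.5 and 27.0 FPKM in the labelled knockout and 5.76 and 5.49 FPKM in the wild type at day 15. Its labelled knockout libraries lay below the wild type at day 7 and above it at day 15. CAPN3, a muscle protease, had a difference of 4.25, with 4.19 and 4.27 FPKM in the labelled knockout and 65.5 and 63.1 FPKM in the wild type at day 7 and 20.4 and 19.3 FPKM in the labelled knockout and 12.2 and 13.2 FPKM in the wild type at day 15. Its change at day 15 alone (log2 change 0.61, SE 0.18, adjusted p = 0.0269) lost its call without any single library of that day, in the day 15 libraries alone, with library weights and with a pseudocount of 0.1. FAM19A4, a secreted chemokine-like protein, had a difference of 4.14, with 32.2 and 18.6 FPKM in the labelled knockout and 141 and 152 FPKM in the wild type at day 7 and 33.3 and 27.0 FPKM in the labelled knockout and 11.9 and 6.94 FPKM in the wild type at day 15. AC009014.3, which the annotation used here does not hold, had a difference of 4.13, with 1.72 and 1.76 FPKM in the labelled knockout and 16.1 and 17.0 FPKM in the wild type at day 7 and 9.23 and 5.04 FPKM in the labelled knockout and 1.86 and 1.90 FPKM in the wild type at day 15.

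POU4F1 had a difference of -4.53, with 3.34 and 3.26 FPKM in the labelled knockout and 0.663 and 0.532 FPKM in the wild type at day 7. The wild-type level of POU4F1 was higher at day 15 than at day 7, and that of the labelled knockout was lower. RPS20P33, a processed pseudogene of a ribosomal protein, had a difference of -3.84, with 9.402 and 14.7 FPKM in the labelled knockout and 6.37 and 4.13 FPKM in the wild type at day 7 and 2.64 and 0.886 FPKM in the labelled knockout and 16.2 and 17.8 FPKM in the wild type at day 15. CHAC1 had a difference of -3.74, with 8.79 and 10.6 FPKM in the labelled knockout and 2.54 and 2.34 FPKM in the wild type at day 7, and CPT1B had one of -3.57, with 25.7 and 28.7 FPKM in the labelled knockout and 6.48 and 6.30 FPKM in the wild type at day 7. Both stood above the wild type at day 7 and below it at day 15. VN1R81P, an unprocessed pseudogene, had a difference of -3.50, with 5.86 and 7.81 FPKM in the labelled knockout and 2.71 and 1.402 FPKM in the wild type at day 7 and 0.745 and 2.37 FPKM in the labelled knockout and 11.8 and 7.62 FPKM in the wild type at day 15. Reads of both pseudogenes may be shared with their parent genes.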

How the results depend on the processing

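Of the 172 named genes that passed at day 15, 156 kept their call and direction under all alternatives run and 16 lost it under at least 1. Many of them were named for a large change or a small p-value in the main fit. Their share that kept the call therefore does not describe all genes that passed. Of the 20 that did not pass, 12 passed under at least 1 alternative and 10 changed sign. Of these, 3 passed in opposite directions without labelled knockout replicate 1 and without replicate 2: RP11-632C17__A.1 lay between -2.23 and 1.25, SNURF between -1.53 and 1.12 and XXbac-BPG252P9.9 between -2.82 and 2.92. The count of higher genes (3080) was 1899 in a fit of the day 15 libraries alone, which leaves 2 residual degrees of freedom, and 2109 to 3236 with 1 library left out. The count of lower genes (2643) was 1664 in the day 15 libraries alone, 1749 with library weights and 1666 to 2497 with 1 library left out. The weights averaged 0.454 for the labelled knockout and 0.967 for the wild type of day 15. The change of TCF3 was 0.66 in the day 15 libraries alone (adjusted p = 0.0838) and 0.34 to 0.98 with 1 library left out. For the replicate block, the correlation of same-numbered deviations was 0.10 to 0.21 among the 3 labelled knockout groups. It was -0.12 between the groups of day 15 and -0.03 to 0.05 between the others. The main fit did not take the numbers as pairs, and whether they link the labelled knockout libraries across days was not tested. The block gave 3136 higher and 2655 lower, with TCF4, MKKS and MRPS27 gained among the named genes. With the day 15 wild-type numbers crossed, an alternative chosen after seeing the data, the replicate block gave 3246 higher and 2746 lower. Pairs of libraries limit every p-value here, a lone library is assumed to vary like the other groups, and without counts the precision of low values is unknown.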
